A study of Mus musculus with 8 samples.

Results

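The transforming growth factor beta (TGF-beta) ligands, receptors and latent binding proteins were read as 9 genes, which are the ligand genes Tgfb1, Tgfb2 and Tgfb3, the receptor genes Tgfbr1, Tgfbr2 and Tgfbr3 and the binder genes Ltbp1, Ltbp2 and Ltbp3. Every probe annotated to exactly 1 of these symbols was used, which gave 23 of the 45037 probes and 9 of the 18193 genes on the array, and 0 probes named one of them together with another gene. The samples were mammary tumours of female mice of the MMTV-PyMT genotype on the FVB/N background (FVB/N-Tg(MMTV-PyVT)634Mul/J), in which a viral middle T antigen is driven by a mammary tumour virus promoter in the mammary epithelium. The 4 treated samples came from tumours of animals given SKI-606, or bosutinib, which blocks Src and Abl kinases. The drug was given by gavage at 100 mg/kg in methocellulose and Tween 80. The other 4 samples came from vehicle mice that carried the same transgene. By its title the series asks about tumour differentiation, and neither the length of treatment nor the age of the animals is given in the sources used here. RNA came from each mouse, per the labels' protocols, but the animals are not listed, so p-values reflect the spread among the 8 arrays only, part of which may be technical.

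TGF-beta is secreted as a latent dimer, held by its propeptide and tied to the matrix by latent TGF-beta binding proteins, and it signals only after release by integrins, proteases or other activators. Active ligand binds the type II receptor, which recruits and phosphorylates the type I receptor, and the type I receptor phosphorylates Smad2 and Smad3. In the mammary gland the pathway is known for holding back epithelial proliferation, for driving matrix production by fibroblasts and, in advanced tumours, for favouring invasion.

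Levels are given as normalized signals, on a linear scale in arbitrary units, after the arrays were set to a common distribution. Differences are on the scale of log2(signal + 16), SKI-606 minus vehicle, and carry their standard error (± SE, 4 samples a group); they understate changes of dim genes. The tests are those of limma over all 45037 probes, adjusted by Benjamini-Hochberg and read at a threshold of 0.05. The median signals of the arrays, recovered before normalization, were 15 to 16 in SKI-606 and 15 to 23 in vehicle samples. The 23 was that of vehicle sample 3, against at most 18 in the other vehicle samples. The precision of all values is limited by having few arrays. The luminal keratin genes Krt8 and Krt18 were bright in both groups, with Krt8 at 5619 ± 613 in SKI-606 and 5741 ± 302 in vehicle samples (SD, n = 4 each). Of 8 luminal markers 3 lay above 0 and 5 below, from -1.22 to 0.40, with a median of -0.07 and 0 called. Their mean log2 levels were 10.49 to 10.66 in SKI-606 and 10.63 to 10.75 in vehicle samples. SKI-606 samples 1 and 4 stood apart on the first principal component over all probes (34% of the variance), with scores of 81.1 and 72.4, where the other 6 samples lay between -38.5 and -14.8. Vehicle sample 3 stood apart on the second (17.9%), at -81, where the others lay between -2.3 and 35.2. The brightest probes of the 9 genes, the medians of most gene lists and many of the pathway genes named are therefore also given without them. In tumour pieces, a higher share of cells of one type and more RNA per cell cannot be told apart.

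In SKI-606 tumours the brightest probes of Tgfb3, Tgfb1, Tgfbr2 and Tgfbr3 had higher mean signals than in vehicle tumours. The ratios were 1.27-fold to 1.88-fold on the log2(signal + 16) scale, and these 4 had an unadjusted limma p under 0.05. Ltbp2 stood at 0.50 ± 0.47, or 1.41-fold, with a wide spread among the SKI-606 samples. Tgfb2 had low signals and stood at -0.25, which came near 0 under other settings. Tgfbr1, Ltbp1 and the brightest probe of Ltbp3 lay within 0.2 log2 units of no difference. None passed the threshold. Of the 23 probes limma called 0, against 0% of all probes in either direction, and their adjusted p-values ran from 0.519 to 0.99. Before adjustment, 5 probes higher and 0 lower had a p under 0.05, where the background over all probes was 4.59% higher and 3.79% lower. Over all 23 probes, 8 of them with a mean signal under 32, 12 lay above 0 and 11 below. Taking the brightest probe of each gene, 7 of 9 lay above 0, against 47.1% of all genes. Of these 9 probes 4 had an unadjusted limma p under 0.05 on the higher side, against 6.07% of all genes. The median difference of the 9 genes was 0.34, that of all genes -0.02. When the 3 samples that stand apart were left out, 5 of 9 lay above 0, with a median of 0.32.

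**Figure D1:**
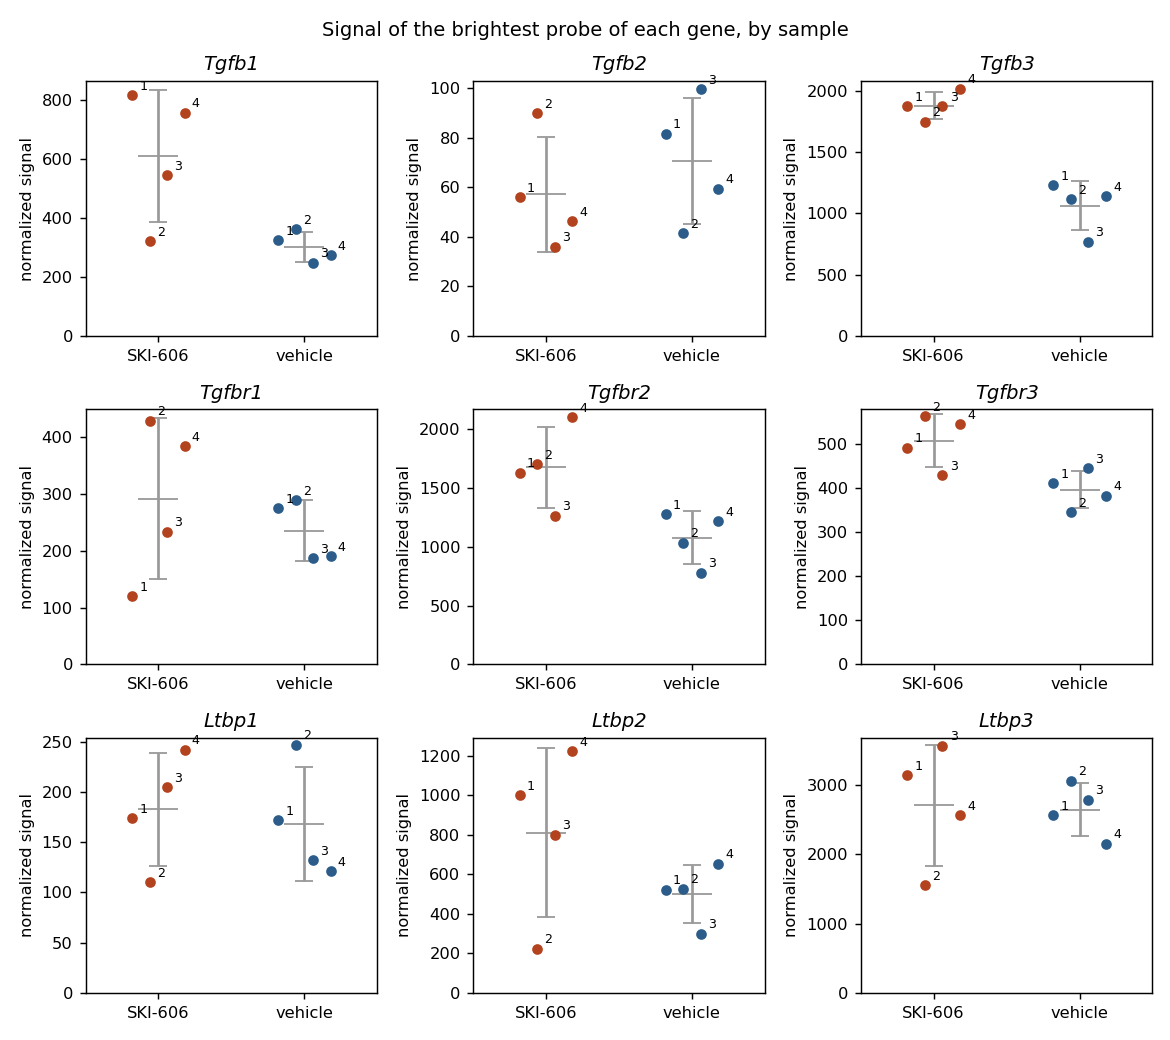
Normalized signal (linear, arbitrary units, each panel with its own axis from 0) of the brightest probe of each of the 9 genes in 4 SKI-606 and 4 vehicle tumours. Points are samples with their replicate numbers, and grey bars show the mean and SD. In the Tgfb3 panel all 4 SKI-606 points lie above all 4 vehicle points, and in the other 8 panels the groups overlap.

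Tgfb3, the isoform known for its role in palate closure and in the involuting mammary gland, separated the groups completely. Its probe 1417455_at had signals of 1876, 1747, 1876 and 2018 in SKI-606 samples 1 to 4, against 1228, 1116, 770 and 1139 in vehicle samples 1 to 4. The SKI-606 samples lay close together, the lowest of them well above vehicle sample 1, which was the highest of its group, while vehicle sample 3 lay below its 3 fellows. The means were 1879 ± 111 in SKI-606 and 1063 ± 201 in vehicle samples (SD, n = 4 each). The difference was 0.83 ± 0.17, with a 95% confidence interval of 0.46 to 1.21, a ratio of 1.78 on this scale. Its limma p was 0.000623 before adjustment, the 24th smallest of 18193 genes, and 0.519 after it. The exact permutation p (two-sided) was 0.0286, the smallest that 4 samples against 4 can give. Tgfb3 was the 1 gene of the 9 whose SKI-606 values all lay above the vehicle values, as they did in 2.39% of all genes, and 0 of the 9 lay wholly below, as 2.03% of all genes did. Leaving out vehicle sample 3 alone gave 0.69. Without the 3 samples that stand apart the difference was 0.64 ± 0.16, and both remaining SKI-606 samples lay above the 3 vehicle samples, as they did in 7.99% of all genes.

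Tgfb1, the isoform made by most cell types, had its highest values in SKI-606 samples 1 and 4, both among the samples that stand apart. Its bright probe 1420653_at read 816, 321, 544 and 756 in SKI-606 samples 1 to 4, against 325, 361, 248 and 274 in vehicle samples 1 to 4. SKI-606 samples 1, 3 and 4 lay above every vehicle sample, and SKI-606 sample 2 lay inside the vehicle range. The means were 609 ± 225 in SKI-606 and 302 ± 50.7 in vehicle samples (SD, n = 4 each), a difference of 0.91 ± 0.28 (95% confidence interval 0.29 to 1.53, limma adjusted p = 0.558, exact permutation p = 0.0857). The value was 0.38 ± 0.26 without the 3 samples. The second Tgfb1 probe, 1445360_at, was dim, at 17.6 ± 5.21 in SKI-606 and 13.7 ± 10.2 in vehicle samples (SD, n = 4 each), and carries little information about the gene.

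Tgfb2, the isoform that depends on betaglycan for high-affinity binding, had low signals on all 4 of its probes, with means of 34.0 to 63.8. Of these probes 3 cite the same accession and so share their source. The brightest, 1450922_a_at, read 56.1, 89.8, 36.1 and 46.4 in SKI-606 samples 1 to 4, against 81.6, 41.5, 99.6 and 59.5 in vehicle samples 1 to 4. The groups overlapped throughout, with SKI-606 sample 2 among the highest values and vehicle sample 2 among the lowest. The difference was -0.25 ± 0.27 (95% confidence interval -0.85 to 0.36, limma adjusted p = 0.836). It was -0.44 to -0.09 with 1 sample left out, -0.02 ± 0.37 without the 3 samples that stand apart, -0.000107 with arrays scaled to a common median and -0.01 with the deposited ratios on a log2 scale, so no direction can be read from it. The probes 1423250_a_at, 1450923_at and 1438303_at stood at -0.39 ± 0.20, -0.21 ± 0.13 and -0.08 ± 0.27. For both 1423250_a_at and 1450923_at, 3 SKI-606 samples lay below all vehicle samples (limma adjusted p = 0.629 and 0.688). Over the alternatives these differences stayed below 0, at -0.53 to -0.22 and -0.27 to -0.06. The difference of 1438303_at rose above 0 with arrays scaled to a common median (0.10) and with deposited ratios on a log2 scale (0.14).

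The ligand genes Tgfb1 and Tgfb2 are shown by the stretch before their annotated starts, to give the sequence context of a brighter and a dimmer ligand gene. RefSeq's promoter table (build GRCm38.p6) held 7 of the 9 genes, not Tgfb3 and Tgfbr3. The 250 bases before the start of Tgfb1, chr7:25686752-25687001 on the + strand, and of Tgfb2, chr1:186705990-186706239 on the - strand, are shown 5′ to 3′ with motif matches in capitals.
Tgfb1: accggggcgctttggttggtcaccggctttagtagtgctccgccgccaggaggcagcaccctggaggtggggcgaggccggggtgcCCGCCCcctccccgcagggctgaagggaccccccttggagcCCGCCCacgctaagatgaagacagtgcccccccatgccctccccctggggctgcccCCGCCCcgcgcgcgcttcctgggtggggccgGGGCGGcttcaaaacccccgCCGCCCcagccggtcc
Tgfb2: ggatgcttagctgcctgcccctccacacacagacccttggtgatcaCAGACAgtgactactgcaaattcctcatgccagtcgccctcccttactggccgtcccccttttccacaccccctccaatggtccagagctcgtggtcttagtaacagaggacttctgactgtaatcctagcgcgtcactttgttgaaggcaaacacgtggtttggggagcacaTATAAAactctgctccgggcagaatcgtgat
The motifs searched on both strands were AP-1 (TGANTCA), CRE (TGACGTCA), a Smad element (CAGACA), the GC box (GGGCGG) and the TATA box (TATAAA). The Tgfb1 window held 5 GC boxes and 0 matches to the other 4 motifs, with a GC content of 75.2%. The Tgfb2 window held 1 TATA box, whose first base lies at position -31 from the start, and 1 Smad element at -204, with a GC content of 53.6% and no GC box. The matches in these windows did not overlap each other. Of the 32851 windows of the same length in the table, 32.7% held a GC box, 12.4% a TATA box, 17.1% the Smad element, 6.75% AP-1 and 1.55% the CRE. The matches describe the letters and were not tested as binding sites.

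Tgfbr2 encodes the type II receptor, which binds active ligand first. Its bright probe 1426397_at read 1633, 1705, 1266 and 2104 in SKI-606 samples 1 to 4, against 1281, 1035, 781 and 1221 in vehicle samples 1 to 4. SKI-606 samples 1, 2 and 4 lay above all vehicle samples, and SKI-606 sample 3 lay just under vehicle sample 1. The difference was 0.63 ± 0.21 (95% confidence interval 0.17 to 1.09, limma adjusted p = 0.558, exact permutation p = 0.0571). A second, dimmer probe, 1425444_a_at, stood at 0.57 ± 0.28, from 77.0 ± 28.7 in SKI-606 and 46.9 ± 18.3 in vehicle samples (SD, n = 4 each). It was 0.34 without vehicle sample 3 and 0.31 ± 0.20 without the 3 samples that stand apart. The third, 1422019_at, was near the floor, at most 8.0 in SKI-606 and 12.4 in vehicle samples, and stood at -0.30 ± 0.16. Without the 3 samples that stand apart the bright probe stood at 0.32 ± 0.21, and without vehicle sample 3 alone at 0.49. The Tgfbr2 window of the promoter table, chr9:116175364-116175613 on the - strand, is shown beside those of the ligands. It held 0 matches to the 5 motifs, as did the window of Ltbp3.
Tgfbr2: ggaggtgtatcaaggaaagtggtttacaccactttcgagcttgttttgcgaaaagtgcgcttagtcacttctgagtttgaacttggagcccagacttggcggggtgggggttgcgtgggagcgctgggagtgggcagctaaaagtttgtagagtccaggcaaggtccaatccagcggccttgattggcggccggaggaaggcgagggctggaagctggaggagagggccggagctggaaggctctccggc

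Tgfbr3 encodes betaglycan, a co-receptor without kinase activity that presents ligand, Tgfb2 protein above all, to the type II receptor. Its probe 1433795_at read 492, 563, 430 and 546 in SKI-606 samples 1 to 4, against 412, 346, 446 and 383 in vehicle samples 1 to 4. SKI-606 samples 1, 2 and 4 lay above the vehicle range and SKI-606 sample 3 within it. The difference was small, 0.34 ± 0.14 (95% confidence interval 0.02 to 0.67, limma adjusted p = 0.584, exact permutation p = 0.0571). It was 0.36 ± 0.19 without the 3 samples that stand apart, so its size was alike with and without them. The dimmer probe 1425620_at stood at 0.17 ± 0.20 and at -0.10 ± 0.17 without these samples.

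Tgfbr1, also named Alk5, encodes the type I receptor kinase that phosphorylates Smad2 and Smad3. Its probe 1420895_at read 120, 429, 234 and 384 in SKI-606 samples 1 to 4, against 275, 289, 187 and 191 in vehicle samples 1 to 4. SKI-606 sample 1 was the lowest of all 8 samples and SKI-606 sample 2 the highest, so the treated group spanned the whole vehicle range. The difference was 0.17 ± 0.35 (95% confidence interval -0.62 to 0.96, limma adjusted p = 0.920), wide enough to hold a change of the size seen for Tgfbr2 or none, and it was 0.34 ± 0.31 without the 3 samples that stand apart. Leaving out SKI-606 sample 1 gave 0.52, and leaving out sample 2 of that group gave -0.05. The probes 1420893_a_at and 1420894_at had mean signals of at most 14.1 in either group.

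**Figure D2:**
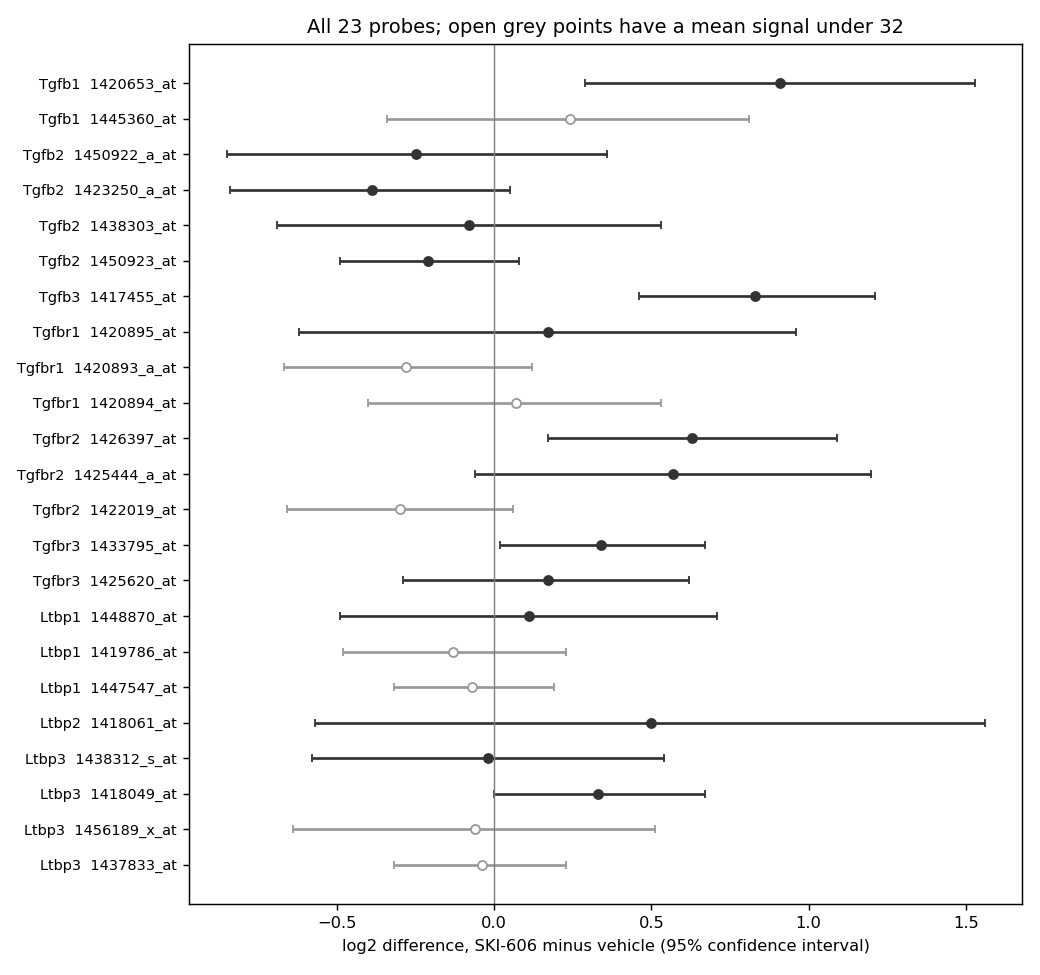
Log2 difference, SKI-606 minus vehicle, with its 95% confidence interval, for all 23 probes (n = 4 in each group). Filled points are the 15 probes with a mean signal of at least 32, open points the 8 dimmer ones, and only the intervals of Tgfb1 1420653_at, Tgfb3, Tgfbr2 1426397_at, Tgfbr3 1433795_at and, barely, Ltbp3 1418049_at lie above 0, before any adjustment for the number of probes.

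The brightest probes of the latent binders stood on both sides of 0. Ltbp2, which sits on fibrillin microfibrils but, unlike its relatives, does not bind the latent ligand covalently, had the widest spread. Its probe 1418061_at read 1000, 224, 801 and 1222 in SKI-606 samples 1 to 4, against 522, 528, 299 and 654 in vehicle samples 1 to 4. SKI-606 samples 1, 3 and 4 lay above all vehicle samples and SKI-606 sample 2 below all of them. The difference was 0.50 ± 0.47 (95% confidence interval -0.57 to 1.56, limma adjusted p = 0.805). Leaving out SKI-606 sample 2 gave 1.02, leaving out sample 4 of that group gave 0.23, and leaving out the 3 samples that stand apart gave -0.39 ± 0.49.

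Ltbp3, which binds the latent ligand and aids its secretion, gave different answers on its bright probes. Probe 1438312_s_at, of a type whose suffix marks possible matches to other transcripts, read 3138, 1557, 3568 and 2567 in SKI-606 samples 1 to 4, against 2567, 3064, 2788 and 2155 in vehicle samples 1 to 4. Its difference was -0.02 ± 0.25 (95% confidence interval -0.58 to 0.54, limma adjusted p = 0.990), with SKI-606 sample 3 the highest of all and SKI-606 sample 2 the lowest. It lay above 0, at 0.15, both with arrays scaled to a common median and with the deposited ratios on a log2 scale. Probe 1418049_at read 1405, 1090, 1588 and 1353 in SKI-606 samples 1 to 4, against 1180, 1016, 1046 and 1024 in vehicle samples 1 to 4. There SKI-606 samples 1, 3 and 4 lay above all vehicle samples, and the difference was 0.33 ± 0.15 (limma adjusted p = 0.596, exact permutation p = 0.0571). Without the 3 samples the probes 1438312_s_at and 1418049_at stood at -0.12 ± 0.37 and 0.29 ± 0.22. Another 2 probes had mean signals of at most 8.19.

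Ltbp1, a major carrier of the latent ligand in matrix, was measured by 1 informative probe, 1448870_at. It read 174, 110, 205 and 242 in SKI-606 samples 1 to 4, against 172, 247, 132 and 121 in vehicle samples 1 to 4. The lowest value belonged to a SKI-606 sample and the highest to a vehicle sample, with a difference of 0.11 ± 0.27 (95% confidence interval -0.49 to 0.71, limma adjusted p = 0.933), and it was -0.18 ± 0.36 without the 3 samples that stand apart. The other probes of Ltbp1 had signals of at most 9.12 in every sample. For comparison, Ltbp4, the family member outside the 9 genes, read 329, 192, 187 and 325 in SKI-606 samples 1 to 4, against 202, 112, 46.5 and 144 in vehicle samples 1 to 4. It stood at 1.04 ± 0.37 (limma adjusted p = 0.560), with vehicle sample 1 inside the SKI-606 range.

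**Figure D3:**
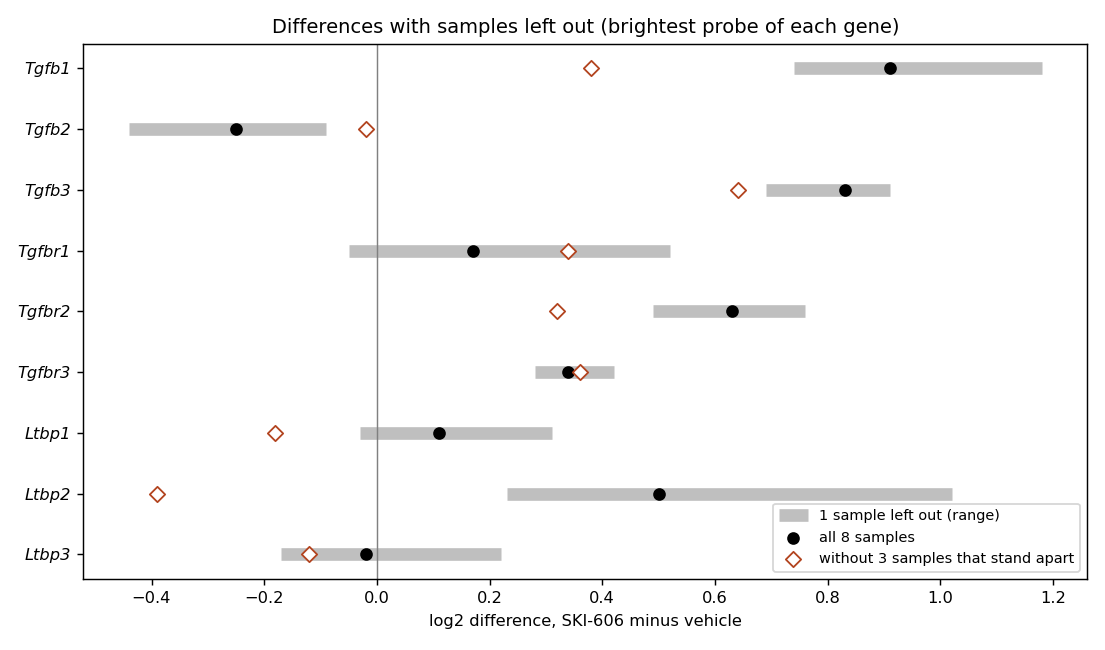
Log2 difference, SKI-606 minus vehicle, of the brightest probe of each gene with all 8 samples (black points), over the 8 fits that leave out 1 sample (grey ranges) and without the 3 samples that stand apart (open diamonds). Tgfb3 stays between 0.64 and 0.91 and Tgfbr3 between 0.28 and 0.42, whereas Tgfb1 is at 0.38 and Ltbp2 at -0.39 without the 3 samples.

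Fibroblasts and macrophages both make and answer TGF-beta, and their markers are given beside the 9 genes. All 12 of 12 fibroblast markers lay above 0, with 0 called, and their level, as a mean log2 value, was 9.15 to 10.32 in SKI-606 and 8.72 to 9.29 in vehicle samples. All 12 of 12 macrophage markers lay above 0 as well, with 0 called, at 8.68 to 9.78 in SKI-606 and 8.06 to 8.99 in vehicle samples. None of these markers had a mean signal under 32. The order of the samples in Tgfbr2 followed the fibroblast level closely, with SKI-606 sample 4 highest and vehicle sample 3 lowest in both. SKI-606 sample 3 alone of its group had a fibroblast level inside the vehicle range, at 9.15 against 9.29 and 9.21 in vehicle samples 1 and 4. Its Tgfb3 signal was 1876, against their 1228 and 1139. For Tgfb1, SKI-606 sample 2 had a fibroblast level of 9.79, close to the 9.80 of SKI-606 sample 1, with signals of 321 and 816. The macrophage levels of SKI-606 samples 2 and 1 differed in the same direction as Tgfb1, at 8.94 and 9.44. So did their endothelial levels, at 6.76 and 7.55. Endothelial markers were at 6.65 to 7.55 in SKI-606 and 5.99 to 6.83 in vehicle samples, with 12 of 12 above 0 and 0 called. Without the 3 samples that stand apart, 10 of 12 fibroblast, 6 of 12 macrophage and 10 of 12 endothelial markers lay above 0, with medians of 0.42, 0.05 and 0.15. The part of these cells in the differences of the 9 genes was not tested.

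**Figure D4:**
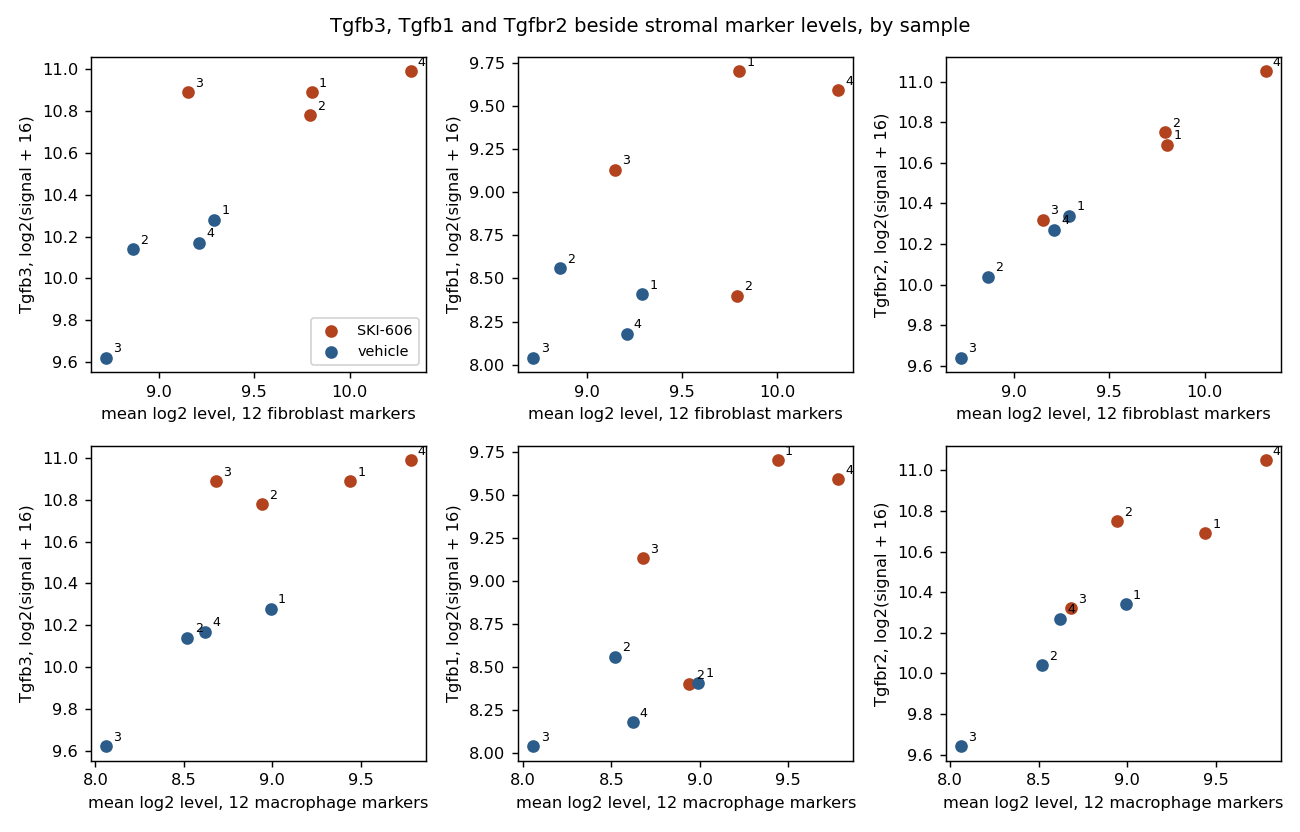
Log2(signal + 16) of Tgfb3, Tgfb1 and Tgfbr2 (brightest probes, vertical axes) against the mean log2 level of 12 fibroblast markers (top) and 12 macrophage markers (bottom), for each of 4 SKI-606 and 4 vehicle samples with their replicate numbers. In the Tgfb3 panels all SKI-606 points sit above all vehicle points. Inside the vehicle range of marker levels lie only SKI-606 sample 3 for fibroblasts and SKI-606 samples 2 and 3 for macrophages. The part of these cells was not tested.

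Platelets store TGF-beta1 protein, and T cells respond to it. Of 5 measured platelet markers 2 stood above 0 and 3 below (median -0.11), with a mean level of 5.75 to 6.03 in SKI-606 and 5.64 to 6.11 in vehicle samples, and 3 of 5 had mean signals under 32. Of 8 T cell markers 8 lay above 0, but all had mean signals under 32, with a level of 4.85 to 5.32 in SKI-606 and 4.42 to 4.93 in vehicle samples. Squamous keratin and envelope genes were at 9.22 and 9.26 in SKI-606 samples 1 and 4 and at 9.06 in vehicle sample 3, against at most 5.11 in the other SKI-606 and 5.82 in the other vehicle samples. Basal and myoepithelial markers, some of them TGF-beta targets, were also highest in SKI-606 samples 1 and 4, at 8.90 and 8.88, against at most 7.26 in the other SKI-606 and 7.82 in vehicle samples.

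Beyond the 9 genes, 86 genes of the pathway were measured in 7 lists by role. limma called 0 of them, 64 lay above 0, and 23 had an unadjusted p under 0.05 on the higher and 3 on the lower side, against 6.07% and 4.31% of all genes. All SKI-606 values lay above all vehicle values in 1 of 8 storage, 1 of 15 activator and 1 of 13 receptor genes. It held for 0 of 13 Smad, 3 of 11 feedback, 4 of 24 induced and 0 of 6 repressed genes, with Pmepa1 counted in both the feedback and induced lists. Over all genes the share was 2.39%. Most genes below were named for small p-values, so a lack of overlap in them is no separate result. Of 8 genes that store or anchor the latent complex, 7 lay above 0, with a median of 0.75. Among them the fibulin gene Fbln1, of the elastic fibre matrix, had 1.70 ± 0.38, beside Ltbp4, and Eln, the elastin gene, at -0.06 ± 0.49. Nrros, which tethers latent TGF-beta on myeloid cells, stood at 0.65 ± 0.25. Of 15 activators 13 lay above 0, with a median of 0.53. The gelatinase gene Mmp2 stood at 1.11 ± 0.30 and the integrin gene Itgb5 at 0.76 ± 0.24, with Itgb5 at 1086 ± 386 in SKI-606 and 607 ± 49.2 in vehicle samples (SD, n = 4 each) and no overlap of the groups. Itgb6, of the epithelial integrin that activates TGF-beta by its propeptide, was near the floor, at 11.2 ± 1.96 in SKI-606 and 14.6 ± 5.71 in vehicle samples (SD, n = 4 each), as was Plau, the urokinase gene, at 4.19 ± 3.51 in SKI-606 and 4.17 ± 2.41 in vehicle samples (SD, n = 4 each), with a difference of -0.01 ± 0.16. The medians of these 2 lists were 0.04 and 0.10 without the 3 samples that stand apart, where Fbln1 stood at 0.84 ± 0.21, Ltbp4 at 0.32 ± 0.25, Nrros at 0.16 ± 0.22, Mmp2 at 0.55 ± 0.30 and Itgb5 at 0.25 ± 0.17.

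Further receptors of the superfamily had a median of 0.20, with 10 of 13 above 0. The median was 0.14 without Eng, which is also an endothelial marker. Acvr1, a type I receptor of the bone morphogenetic protein branch, stood at 0.82 ± 0.19, with 474 ± 113 in SKI-606 and 258 ± 37.3 in vehicle samples (SD, n = 4 each) and no overlap, and the endothelial co-receptor gene Eng at 0.71 ± 0.25. Bmpr1a and Acvr1b stood at -0.18 ± 0.27 and -0.05 ± 0.20. The signal transducers were divided, and of 13 Smads and nuclear regulators 6 stood above 0 and 7 below, and the median was -0.04. Without the 3 samples that stand apart the medians of the receptor and Smad lists were 0.11 and -0.17, with Acvr1 at 0.46 ± 0.18, Eng at 0.30 ± 0.23 and Bmpr1a at 0.11 ± 0.27. Smad2, Smad3 and Smad4 stood at -0.04 ± 0.15, -0.23 ± 0.18 and -0.04 ± 0.14. Trim33, which encodes a ubiquitin ligase acting on Smad4, stood at -0.74 ± 0.25, and Foxh1, a dim Smad partner gene, at -0.66 ± 0.28. Smad5 and Skil stood at 0.27 ± 0.15 and 0.22 ± 0.27. Without the 3 samples Trim33 and Foxh1 were at -0.39 ± 0.26 and -1.12 ± 0.17, and Smad5 and Skil at 0.15 ± 0.18 and 0.42 ± 0.24.

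Among genes that TGF-beta is known to induce, 22 of 24 measured lay above 0, with a median of 0.77 and 0 called. The collagen genes Col1a1 and Col1a2 stood at 0.85 ± 0.24 and 0.72 ± 0.20. They were among the 4 of 24 whose SKI-606 values all lay above the vehicle values, against 2.39% of all genes. Snai2 and Il11 stood at -0.30 ± 0.38 and -0.05 ± 0.22. Of these 24 genes 4 were also markers of fibroblasts or myoepithelium, and Ltbp2 is 1 of the 9 genes itself. Without these 4 markers the median of the 20 others was also 0.77. The 20 still held matrix genes such as Col5a1 and Postn, so their median cannot set a TGF-beta response apart from stromal content. Without the 3 samples that stand apart the median of all 24 was 0.23, with 16 above 0, Col1a1 at 0.43 ± 0.18 and Col1a2 at 0.31 ± 0.16. Pmepa1, both a target and a feedback inhibitor, read 3675, 2653, 3304 and 3736 in SKI-606 samples 1 to 4, against 2348, 2486, 1986 and 2510 in vehicle samples 1 to 4. All its SKI-606 values lay above the vehicle values, with a difference of 0.51 ± 0.16 (limma adjusted p = 0.558), which was 0.27 ± 0.18 without the 3 samples. Smad7, the classical feedback inhibitor gene, stood at 0.08 ± 0.28 and without the 3 samples at -0.27 ± 0.27, with the groups overlapping. Of 11 genes in the feedback list 8 lay above 0, with a median of 0.33 (0.14 without the 3 samples). Among them was Dcn, whose protein decorin binds the ligand, at 1.18 ± 0.38 (0.84 ± 0.51 without the 3 samples). Dcn is also a fibroblast marker, and the median of the 10 other genes was 0.25. Usp15, at -0.67 ± 0.29 (-0.45 ± 0.34 without the 3 samples), is in that list although its product, a deubiquitinase, is known to favour signalling. Ppp1ca, a phosphatase gene, stood at -0.05 ± 0.14. Of 6 genes that TGF-beta is known to repress 4 lay below 0, with Cdc25a and Id2 at -0.28 ± 0.18 and -0.25 ± 0.20, while Id3 and Id1 stood at 1.07 ± 0.52 and 0.90 ± 0.65. With the 3 samples left out, Id3 and Id1 were at 0.30 ± 0.19 and -0.12 ± 0.19, and Cdc25a and Id2 at 0.01 ± 0.19 and -0.02 ± 0.23.

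**Figure D5:**
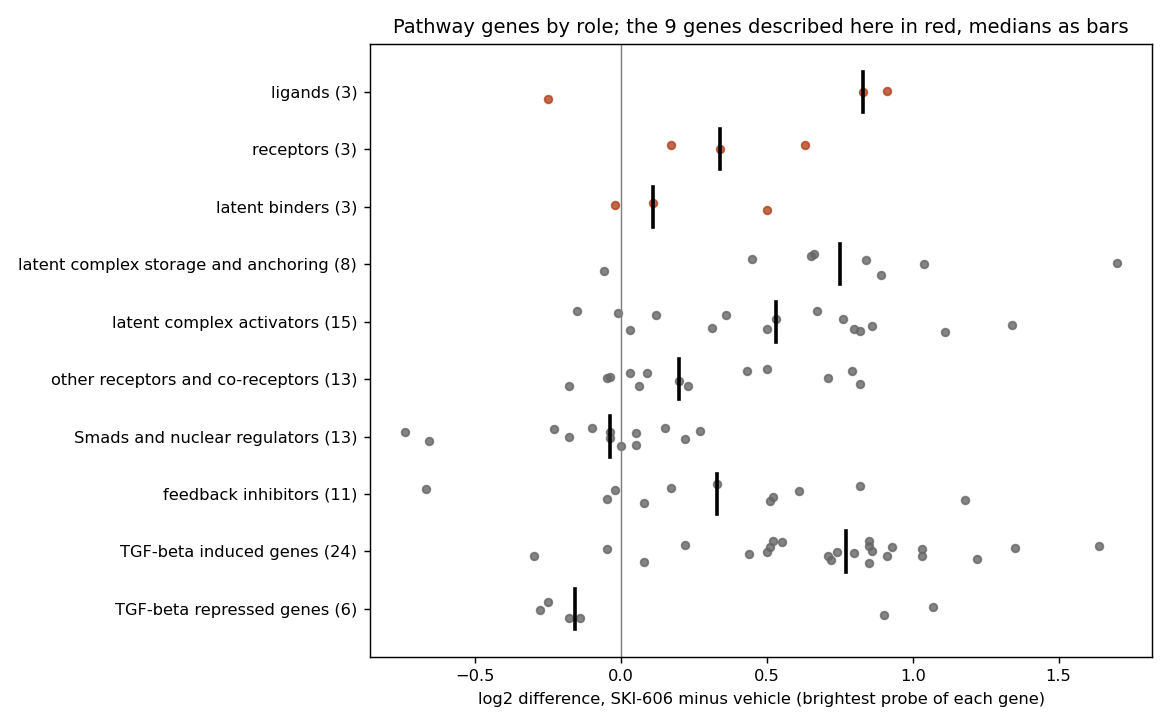
Log2 difference, SKI-606 minus vehicle, of the brightest probe of each gene, by role, with the number of measured genes in parentheses and medians as black bars. The 3 ligand, 3 receptor and 3 latent binder genes are in red and have medians of 0.83, 0.34 and 0.11, and the medians of the storage, activator and induced gene lists are 0.75, 0.53 and 0.77, with 1, 2 and 2 genes below 0, while that of the Smads is -0.04.

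The genes whose levels followed the 9 genes most closely across the 8 samples were taken from the brightest probes of 6638 other genes (6639 for Tgfb2) with a mean log2 value of at least 7. Such likeness is a description, since so many genes were searched over 8 samples in which SKI-606 samples 1 and 4 stand apart. Tgfb3 was most like Shisa5 (Pearson's r = 0.991, Spearman's rho = 0.988) and Cd74 (r = 0.988, rho = 0.994). Cd74 encodes the invariant chain of MHC class II. Tgfb1 was most like Tln1, the talin gene (r = 0.976), and Tnfrsf1b, a tumour necrosis factor receptor gene (r = 0.971). Tgfbr2 was most like Trio (r = 0.979) and Tbc1d2b (r = 0.977). Tgfb2 was most like Dab2ip and Apln, Tgfbr1 like Ginm1 and Btbd7, and Tgfbr3 like Slc16a1 and Plscr2, with r between 0.919 and 0.988. The binders Ltbp1, Ltbp2 and Ltbp3 were most like Dlg5 and Stx6, Sdc3 and Cirbp, and Hes6 and Ubl7, with r between 0.942 and 0.965.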

How the data were processed

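Gene expression was measured in 4 SKI-606 and 4 vehicle tumours, grouped by the titles in the labels. The deposited values are linear ratios, and no label says which software or normalization the authors used. From the values, each signal had been divided by its array median and then by its probe median, with a constant divisor for dim probes and a lowest value of 0.01. Whole-number signals were recovered as the smallest that give the ratios, and they return the deposited ratios of 45101 of 45101 probes within a relative 0.0001. In a simulation of 5000 probes, 99.82% came back exactly.

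After leaving out 64 control probes, signals were quantile normalized, 16 was added and log2 was taken. Groups were compared with lmFit and eBayes of limma 3.58.1 in R 4.3.3 over 45037 probes, also tested on simulated data. The annotation gave 34945 probes 1 symbol, 932 several and 9160 none. Genes stand at their probe of highest mean.

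The 9 genes and the lists were chosen with earlier results of these data known. Named are all their probes, from each pathway list the 2 genes of smallest unadjusted p in each direction, the 2 brightest markers of a cell type where given, and the 2 most alike genes. Nrros, Smad2, Smad3, Smad4 and Smad7 were named after their values were seen. Same-numbered samples did not deviate together.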

Additional observations from a re-analysis of the deposited data

How the results depend on the processing

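In all limma settings tried, and at a threshold of 0.1, 0 of the 23 probes and 0 probes in all were called, with 3771 probes at an unadjusted p under 0.05 with all samples, 2366 to 4923 with 1 sample left out, 1934 among probes of mean signal of at least 32, and 1786 without the 3 samples that stand apart. The median of the 9 genes, 0.34, was 0.23 to 0.42 with 1 sample left out. With the mean of all probes of a gene it was 0.25. It was 0.62 with the deposited ratios on a log2 scale and 0.60 with arrays scaled to a common median. Those settings moved the median of all genes to 0.16 and 0.10. Over the alternatives Tgfb3 kept its direction, with a limma adjusted p between 0.278 and 1. Signs changed for several probes, most of them near 0 or near the floor but also for the bright Ltbp2 probe. Tgfb2 1438303_at stood at 0.14 on the ratios, 0.10 with median scaling and 0.09 without the 3 samples, and Ltbp3 1438312_s_at at 0.15 in both of the first settings. Tgfbr1 1420894_at stood at -0.05 without normalization and Ltbp3 1456189_x_at at 0.00444 with array weights. Without the 3 samples Tgfbr3 1425620_at was at -0.10, Ltbp1 1448870_at at -0.18 and Ltbp2 at -0.39. The causes were not tested. The brightest Tgfb2 probe, 1450922_a_at, kept its sign but came to -0.01 on the ratios, -0.000107 with median scaling and -0.02 without the 3 samples. With 1 sample left out the ranges of probes that changed sign were -0.00365 to 0.43 for Tgfb1 1445360_at, -0.26 to 0.08 for Tgfb2 1438303_at, -0.05 to 0.52 for Tgfbr1 1420895_at, -0.07 to 0.21 for Tgfbr1 1420894_at, -0.03 to 0.26 for Tgfbr3 1425620_at, -0.03 to 0.31 for Ltbp1 1448870_at, -0.18 to 0.01 for Ltbp1 1419786_at, -0.17 to 0.22 for Ltbp3 1438312_s_at, -0.21 to 0.07 for Ltbp3 1456189_x_at and -0.08 to 0.01 for Ltbp3 1437833_at.

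With the replicate number as a block, 0 probes were called, 3856 had an unadjusted p under 0.05 and the median of the 9 genes was 0.34. Deviations of same-numbered samples correlated at 0.021, 0.108, -0.151 and -0.106, and those of differently numbered samples at -0.235 to 0.186. The numbers thus gave no sign of pairing, which so few samples cannot exclude. The 8 dim probes, with mean signals under 32, limit what can be said of their transcripts.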
